A study of Mus musculus with 10 samples.

Results

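The genes described here are 35 factors that build ribosomes in the nucleolus, taken by symbol from the 24391 genes counted in 5 cell lines of mouse small cell lung cancer. This cancer (SCLC) is a lung tumour of neuroendocrine character. The lines, G4314, G9351, G9488, G9529 and G9577, came from mouse tumours with the genotype given in the labels as Rb;p53,TRE-MYCN, LSL-RTTA, so every library shares altered Rb and p53 genes, a MYCN transgene behind a tetracycline-responsive promoter and the activator rtTA behind a removable stop cassette. Each line was sequenced once on doxycycline, which keeps the transgene on, and once after 4 days off it. No line without the transgene is analysed here, so an effect of doxycycline itself cannot be told apart from an effect of MYCN. The 35 members were grouped by step into 5 general nucleolar factors, 4 proteins of box C/D particles, 4 of H/ACA particles, 10 factors of the small ribosomal subunit and 12 of the large subunit. All 35 symbols were found and all 35 passed the filter on low counts.

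Ribosomes are assembled in the nucleolus, where RNA polymerase I makes a long precursor of ribosomal RNA. Small nucleolar RNAs guide its modification in particles of 2 kinds: box C/D particles methylate ribose and H/ACA particles turn uridine into pseudouridine. A large processome then cuts and folds the precursor into the small subunit, while a separate chain of pre-ribosomal particles matures the large subunit before both are exported. MYC-family transcription factors are known as activators of ribosome production, and a prominent nucleolus is a common sign of fast-growing tumour cells.

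The 10 libraries held between 9586465 and 11960074 counts. Mycn, the targeted gene, was counted at 538, 496, 884, 791 and 977 CPM (counts relative to the library total, scaled between libraries) with MYCN on and at 177, 27.6, 189, 109.8 and 85.9 CPM with MYCN off, in G4314, G9351, G9488, G9529 and G9577 in this order, which is the order of lines throughout. Every line thus held more Mycn in its on library, and the fitted rise was 7.28-fold (adjusted p = 0.00421), or 6.47-fold without G9577. The labels do not give the species of the transgene, so these values describe the reads counted in the mouse Mycn gene, which may hold only part of its transcript. Myc, its relative, was 6.22-fold lower with MYCN on (adjusted p = 0.00339), and 6.62-fold lower without G9577. Myc was at 2.06, 0.59, 0.65, 1.24 and 11.0 CPM with MYCN on and 11.9, 9.09, 2.84, 7.04 and 55.9 CPM with MYCN off. The fold without G9577 thus rests on levels of at most 11.9 CPM. G9577 stood apart from the other 4 lines in markers of cell type and went against its label. The summed level of 10 neuroendocrine markers was 224 and 174 CPM in its on and off libraries. The other 8 held 3256 to 6557 CPM. Most of the sum in G9577 came from Uchl1 (118 and 17.3 CPM) and Ncam1 (99.8 and 125 CPM), each below its level in the other 4 lines. The 4 epithelial markers summed to 9.97 and 39.9 CPM in G9577, against 1612 to 3237 CPM. Of these, Krt18 was not lowest in G9577 (3.26 and 4.90 CPM), since G9351 held 0.49 and 0.66 CPM. The 7 fibroblast markers of G9577 summed to 202 and 2255 CPM, against at most 5.86 CPM elsewhere. Among the fibroblast markers, Dcn reached only 2.67 CPM in G9577, below the 3.03 CPM in the off library of G9488. The 4 endothelial markers of G9577 summed to 35.7 and 133 against at most 11.1 CPM. Kdr alone made up 35.4 and 130 CPM of these sums, while Pecam1, Cdh5 and Tek did not exceed their highest level in the other lines. Summed levels of 5 immune markers lay between 1.18 and 5.80 CPM in all 10 libraries. The neuroendocrine marker Dbh was under 1 CPM in every library. Of 9 neuroendocrine markers that passed the filter on low counts 6 fell with MYCN on, as did 1 of 4 epithelial, 1 of 2 fibroblast and 1 of 2 endothelial markers, beside 15.6% of all genes tested. The part of these cell states in the results was not tested. Since G9577 stood apart, fitted changes of the members and counts of the gene lists are given over the 5 lines and again without G9577. In bulk RNA, a change in the share of cells that express a gene and a change in its RNA per cell cannot be told apart.

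Of the 35 members, 34 rose with MYCN on and none was called lower, by edgeR's quasi-likelihood test paired by line with Benjamini-Hochberg adjustment over 12835 genes. Among all genes tested, 15.3% rose. The members were chosen with earlier results of these data known, so this comparison and those that follow are a description. The median log2 change of the members was 1.59, or 3.001-fold, beside -0.08 over all genes tested, and 33 of the 34 rises were at least 2-fold. Without G9577, 34 of 35 still rose, beside 17.4% of all genes, and the median was 1.38. Against a null of a 1.5-fold change the test called 30 members, beside 3.33% of all genes. In 34 members the change was positive in all 5 lines, as it was in 20.9% of all genes. In 29 members every library with MYCN on stood above every library with MYCN off, which held for 6.35% of all genes. All 35 fitted changes were positive, and the member that missed the threshold was Utp20. Without the line as a block the test called 20 members, all higher, beside 274 of the 12835 genes tested called in either direction.

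**Figure D1:**
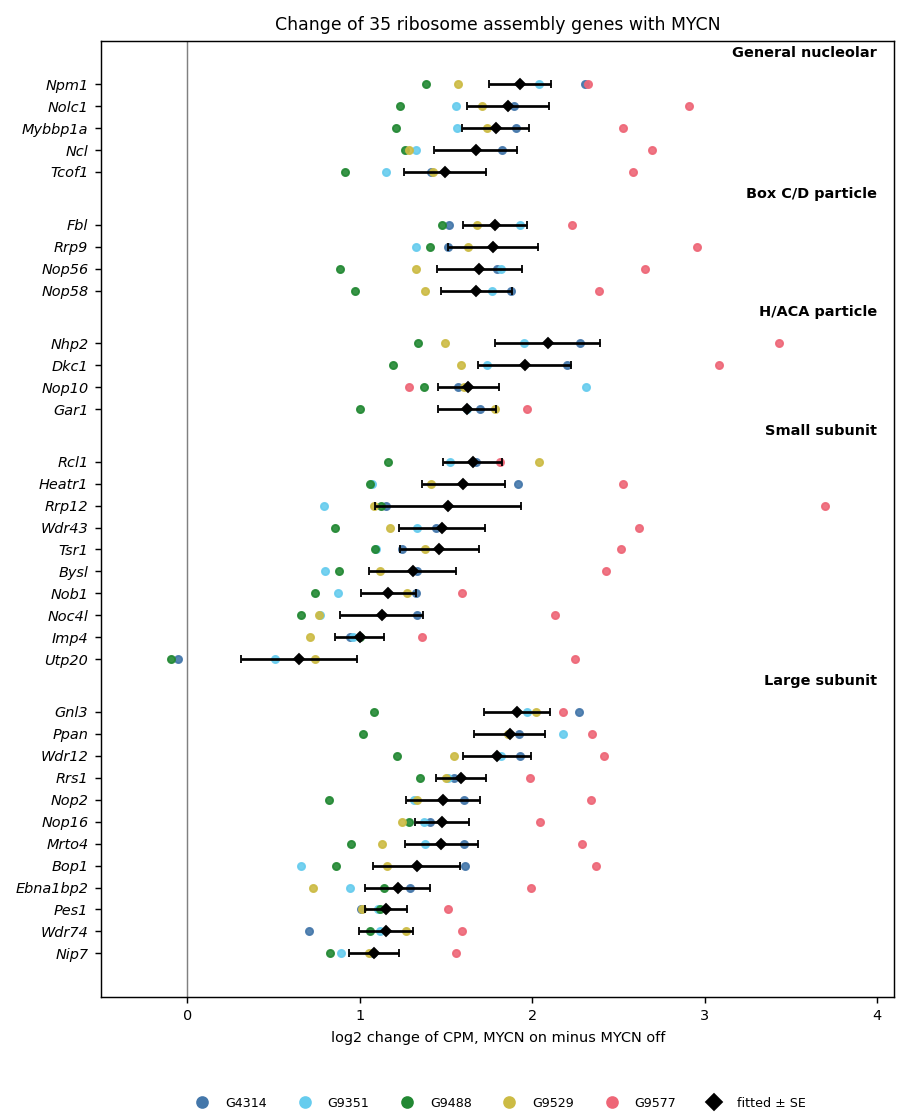
Log2 change of CPM, MYCN on minus MYCN off, on the horizontal axis for each of the 35 members, grouped by step and sorted by the fitted change. Coloured points are the 5 lines and black diamonds the fitted change with its standard error. All points lie right of 0 except those of Utp20 in G4314 and G9488, and G9577 is the rightmost point in 32 members.

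The 5 general nucleolar factors all rose. Npm1 (mm9 chromosome 11, 33052498 to 33063206, minus strand) encodes nucleophosmin, an abundant nucleolar chaperone. It was counted at 679.7, 723, 660.1, 613 and 1859 CPM with MYCN on and at 137, 175, 253, 206 and 371 CPM with MYCN off. The lowest on library was above the highest off library, and G9577 was highest in both groups. Npm1 rose 3.81-fold (log2 change 1.93, SE 0.18, adjusted p = 0.00265), and 3.57-fold without G9577. Ncl (mm9 chromosome 1, 88241294 to 88256030, minus strand), for nucleolin, an RNA-binding protein of the nucleolus, stood at 1629.9, 1379, 1918, 1764 and 3902 CPM with MYCN on and 461, 549, 799, 723 and 602 CPM with MYCN off, and the groups did not overlap. Its rise was 3.19-fold (log2 change 1.67, SE 0.24, adjusted p = 0.00492). Nolc1, also called Nopp140, which chaperones both kinds of small nucleolar particle, ranged from 227 to 724 CPM with MYCN on and 70.3 to 96.3 CPM with MYCN off and rose 3.62-fold. Mybbp1a, a nucleolar protein tied to ribosomal RNA synthesis, ranged from 412 to 1609.8 CPM with MYCN on and 125 to 279 CPM with MYCN off and rose 3.46-fold. Tcof1, for treacle, which links polymerase I to the modification of its product, ranged from 114 to 489 CPM with MYCN on and 46.7 to 82.9 CPM with MYCN off and rose 2.82-fold. In these 3 genes, too, all on libraries exceeded all off libraries. Of the Npm1 transcript, 53.8% of bases match other annotated genes at 97% identity or more, so the level of Npm1 is uncertain. Such matches were found for 12 of the 35 members, and they can include neighbours that overlap the same place in the genome.

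Box C/D particles carry a methyltransferase on a scaffold of paired proteins. Fbl (mm9 chromosome 7, 28954767 to 28964288, plus strand), for the methyltransferase fibrillarin, was counted at 24.2, 26.5, 36.3, 38.8 and 46.1 CPM with MYCN on and 8.33, 6.84, 12.9, 11.98 and 9.68 CPM with MYCN off. The groups did not overlap, and the 5 lines differed little in their changes, which ran from 1.48 to 2.23 on the log2 scale. Fbl rose 3.44-fold (log2 change 1.78, SE 0.18, adjusted p = 0.00300). The scaffold gene Nop58 (mm9 chromosome 1, 59741850 to 59768354, plus strand) stood at 329, 309, 391, 373 and 482 CPM with MYCN on and 89.4, 90.7, 199, 143 and 92.1 CPM with MYCN off. It rose 3.20-fold (log2 change 1.68, SE 0.21, adjusted p = 0.00376). Nop56, its partner (39% of the transcript matches other genes), was counted at 241, 197, 340.2, 246 and 347 CPM with MYCN on and 69.3, 55.8, 184, 98.2 and 54.99 CPM with MYCN off and rose 3.23-fold (SE 0.25 on the log2 scale). With MYCN off the G9488 library was highest for both scaffold genes, and G9488 had their smallest changes, 0.88 for Nop56 and 0.97 for Nop58. Rrp9, specific to the U3 particle that starts processing of the small subunit, rose 3.42-fold. Its groups overlapped: the on library of G9351 held 23.8 CPM and the off library of G9488 30.3 CPM.

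H/ACA particles hold the pseudouridine synthase dyskerin and its partners, and the same core is part of telomerase. Dkc1 (mm9 chromosome X, 72341193 to 72355115, plus strand), for dyskerin, was counted at 165, 133, 193, 179.9 and 361 CPM with MYCN on and 35.7, 39.6, 84.4, 59.8 and 42.4 CPM with MYCN off. The groups did not overlap. It rose 3.88-fold (log2 change 1.96, SE 0.27, adjusted p = 0.00441). Among the 35 members, Nhp2 (mm9 chromosome 11, 51433275 to 51437216, plus strand), a core protein that binds the guide RNA, had the largest fitted rise, 4.26-fold (log2 change 2.09, SE 0.31, adjusted p = 0.00509). Its levels were 131, 149, 191, 133 and 493 CPM with MYCN on and 26.8, 38.3, 75.5, 47.3 and 45.6 CPM with MYCN off. The on library of G9577 was far above the others, and the rise was 3.42-fold without that line. Gar1, which helps the enzyme turn over its target, ranged from 70.5 to 185 CPM with MYCN on and 22.8 to 47.1 CPM with MYCN off and rose 3.08-fold. Nop10, a small protein that binds dyskerin, was counted at 73.7, 93.9, 132, 99.5 and 110.0 CPM with MYCN on and 24.7, 18.7, 50.8, 32.6 and 44.97 CPM with MYCN off and rose 3.10-fold. Neither gene had overlapping groups. Nop10 was the one member whose smallest change was in G9577, at 1.29, against 2.31 in G9351.

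**Figure D2:**
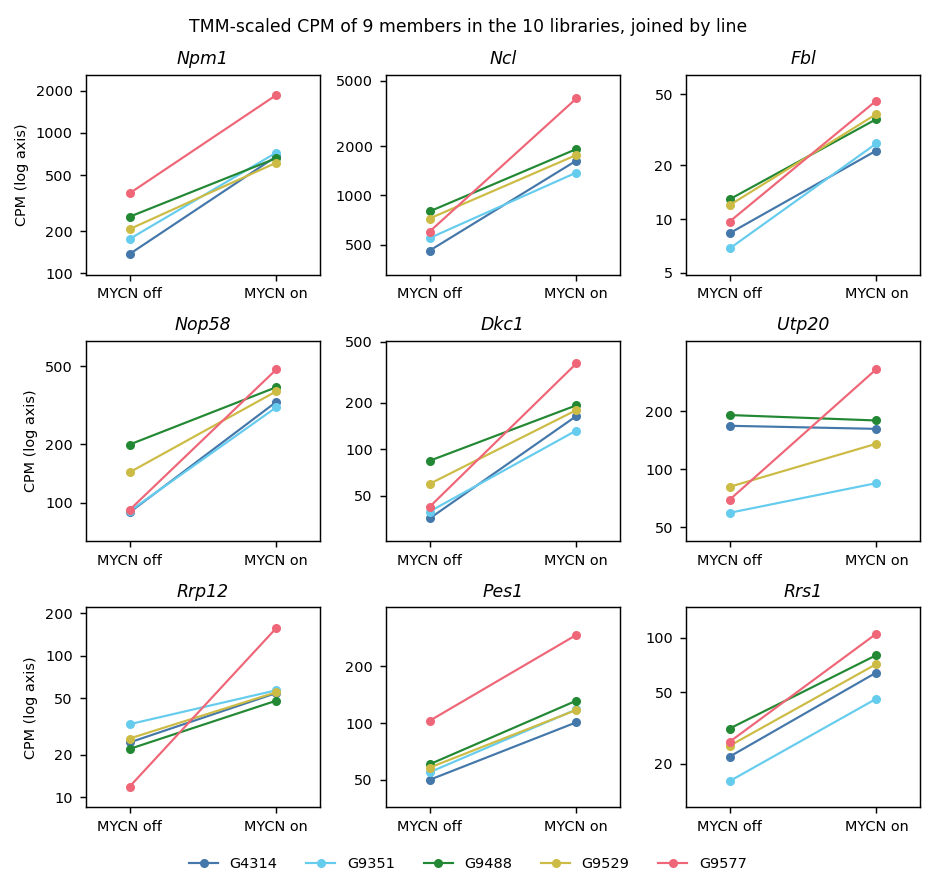
TMM-scaled CPM on a log axis for 9 members, with MYCN off at the left and MYCN on at the right of each panel and 1 joined pair of points per line. Lines climb in every panel except that of Utp20, where G4314 and G9488 are flat and also high with MYCN off.

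Levels scaled by gene length (RPKM, CPM per kilobase of exon) allow subunits of a particle to be set side by side. With MYCN on, the mean RPKM of the box C/D scaffold was 191 ± 34.2 for Nop58 and 145 ± 34.9 for Nop56 (SD, n = 5 lines). Fbl was counted at 29.7 ± 7.79 RPKM, and Nhp2l1, the gene of the protein that binds the kink of the guide RNA, at 17.5 ± 8.07 RPKM (SD, n = 5 lines). With MYCN off the same order of means held, at 62.2, 48.8, 8.58 and 8.19 RPKM, though Fbl and Nhp2l1 differed there by less than their spread. Reads that map to several places were not counted. Of the Fbl transcript, 57.6% of bases match another annotated gene at 97% identity or more. Whether that gene lies elsewhere in the genome was not checked, and any effect on the level of Fbl was not tested. For Nhp2l1 such matches were not checked. In the H/ACA core the mean RPKM with MYCN on was 219 ± 154 for Nhp2, 138 ± 28.8 for Nop10, 81.6 ± 36.6 for Gar1 and 73.6 ± 31.8 for Dkc1 (SD, n = 5 lines). Nhp2 and Nop10, and Gar1 and Dkc1, differed by less than their spread over lines, while Nop10 stood above Gar1 in all 10 libraries. No copy of these 4 transcripts was found at that identity. With MYCN off the means were 46.5, 46.6, 25.9 and 18.7 RPKM.

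**Figure D3:**
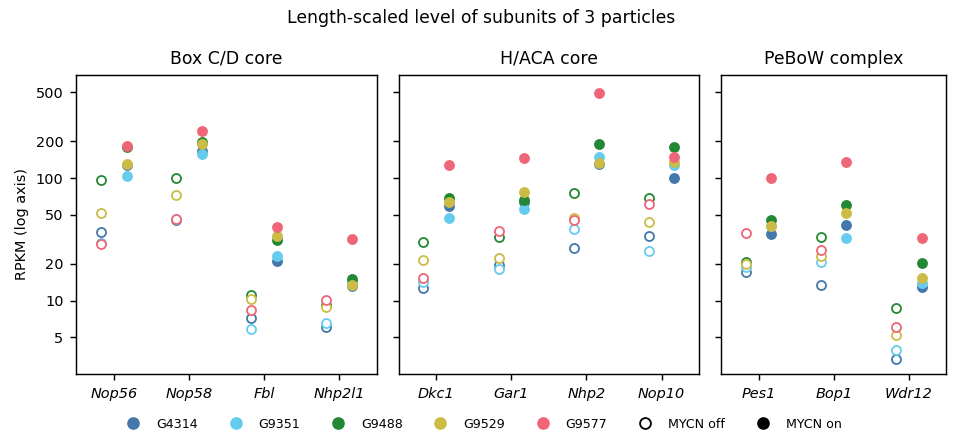
RPKM on a log axis for subunits of the box C/D core, the H/ACA core and the PeBoW complex of the large subunit, with open points for MYCN off, filled points for MYCN on and colours for lines. Filled points lie above the open point of the same colour for every gene, and Fbl and Nhp2l1 lie below Nop56 and Nop58 in each line and condition.

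Of the 10 small subunit factors, 9 rose. Heatr1 (mm9 chromosome 13, 12487642 to 12531160, plus strand) and Wdr43, both subunits of the processome that links polymerase I transcription to processing, rose 3.03-fold (log2 change 1.601, SE 0.24, adjusted p = 0.00531) and 2.78-fold (SE 0.25 on the log2 scale). Wdr43 ranged from 179 to 394 CPM with MYCN on and 63.9 to 125 CPM with MYCN off. Heatr1 stood at 80.9, 57.04, 98.9, 92.8 and 307 CPM with MYCN on and 21.3, 26.996, 47.3, 34.7 and 53.1 CPM with MYCN off, and the groups did not overlap. Rcl1, a processome protein related to RNA cyclases, was counted at 43.5, 52.6, 34.7, 37.4 and 123 CPM with MYCN on and 13.5, 18.2, 15.4, 8.98 and 34.95 CPM with MYCN off. It rose 3.15-fold, and the off library of G9577 reached just above the lowest on library, that of G9488. Imp4, which joins U3 to the precursor, had the smallest rise of the members called, 1.998-fold (log2 change 0.999, SE 0.14, adjusted p = 0.00464), with changes between 0.71 and 1.36 in the 5 lines. Its levels ranged from 49.3 to 105 CPM with MYCN on and 25.5 to 40.7 CPM with MYCN off. Noc4l, which acts with Nop14 in the processome, ranged from 50.7 to 94.7 CPM with MYCN on and 21.5 to 39.02 CPM with MYCN off and rose 2.19-fold (log2 change 1.13, SE 0.24, adjusted p = 0.0146). Its call was lost without G4314 (adjusted p = 0.0629, and 0.000372 to 0.0890 over all alternatives).

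Later in small subunit maturation, the pre-ribosomal factors Bysl (bystin) and Tsr1 rose 2.47-fold and 2.75-fold. Bysl ranged from 41.3 to 135 CPM with MYCN on and 19.6 to 37.2 CPM with MYCN off, and Tsr1 from 77.6 to 213 CPM with MYCN on and 32.6 to 49.4 CPM with MYCN off. Their exons overlap those of neighbours, 27.9% of the bases of Bysl with Ccnd3 and 68.5% of those of Tsr1 with Srr. Reads assigned to both genes of a pair were not counted, and strand was not used, so these levels are uncertain. Nob1, the nuclease that trims the end of the small subunit RNA, ranged from 58.8 to 175 CPM with MYCN on and 27.8 to 57.9 CPM with MYCN off and rose 2.24-fold (SE 0.16 on the log2 scale). Rrp12 (mm9 chromosome 19, 41937341 to 41970643, minus strand), an export and maturation factor, was counted at 54.6, 57.1, 48.2, 55.3 and 157 CPM with MYCN on and 24.5, 32.9, 22.004, 26.1 and 11.9 CPM with MYCN off. G9577 had both the highest on and the lowest off library. Rrp12 rose 2.85-fold (log2 change 1.51, SE 0.42, adjusted p = 0.0340), with a change of 3.70 in G9577 and of 0.79 to 1.15 in the other lines. Without G9577 the rise was 2.07-fold (adjusted p = 0.00247). It missed the threshold without G4314, G9351, G9488 or G9529 (adjusted p = 0.0887, 0.0676, 0.0682 and 0.0653). Over all alternatives its adjusted p ran from 0.00163 to 0.128.

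Utp20 (mm9 chromosome 10, 88209352 to 88289559, minus strand), a very large scaffold protein of the processome, was the one member that did not pass the test. Its levels were 162, 84.6, 179, 135 and 329.8 CPM with MYCN on and 168, 59.3, 191, 80.9 and 69.4 CPM with MYCN off. In G4314 and G9488 the off library held as much as the on library, with log2 changes of -0.05 and -0.09. The changes were 0.51 in G9351, 0.74 in G9529 and 2.25 in G9577. The fitted log2 change was 0.65 (SE 0.34, adjusted p = 0.172) over the 5 lines. Without G9577 it was 0.28 (adjusted p = 0.206), and over all alternatives the adjusted p ran from 0.139 to 0.650. A p that misses the threshold does not show that Utp20 was stable: G9577 more than quadrupled its level, from 69.4 to 329.8 CPM.

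All 12 large subunit factors rose. The PeBoW complex, which processes the spacer before the large subunit RNA, is made of Pes1, Bop1 and Wdr12. Pes1 (mm9 chromosome 11, 3863978 to 3880007, plus strand) was counted at 101, 118, 131, 117 and 293 CPM with MYCN on and 49.998, 54.8, 60.4, 58.03 and 103 CPM with MYCN off. The off library of G9577 overlapped the on group. The rise of Pes1 was 2.22-fold (log2 change 1.15, SE 0.12, adjusted p = 0.00300), and of all members its changes varied least between lines, from 1.01 to 1.51. Bop1 was counted at 102, 80.8, 149.7, 129 and 333 CPM with MYCN on and 33.2, 51.2, 82.1, 57.6 and 64.2 CPM with MYCN off. It rose 2.51-fold (SE 0.25 on the log2 scale), with the on library of G9351 just under the off library of G9488. Wdr12 ranged from 43.7 to 109 CPM with MYCN on and 11.3 to 29.3 CPM with MYCN off and rose 3.47-fold (SE 0.20), with no overlap. The 3 subunits were at 52.2 ± 27.3, 64.2 ± 40.8 and 18.99 ± 8.02 RPKM with MYCN on (SD, n = 5 lines), and at 22.4, 23.3 and 5.44 RPKM with MYCN off. Wdr12 had the lowest level of the 3 in all 10 libraries. Of its longest annotated transcript (10012 bases), 15.7% matches other annotated genes. The counted exons hold 3376 bases, and whether the matches lie in them was not checked.

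Among the other large subunit factors, Gnl3 (mm9 chromosome 14, 31825619 to 31832317, minus strand), for the nucleolar GTPase nucleostemin, had the largest rise, 3.76-fold (log2 change 1.91, SE 0.19, adjusted p = 0.00300). It stood at 205, 149.9, 119, 249 and 314 CPM with MYCN on and 42.3, 38.2, 55.9, 61.2 and 69.1 CPM with MYCN off. The groups did not overlap, and G9488 had the smallest change (1.08). Ppan, an early pre-ribosomal factor, ranged from 109.5 to 177 CPM with MYCN on and 24.1 to 76.5 CPM with MYCN off and rose 3.66-fold. Nop2, which methylates a cytosine of the large subunit RNA, ranged from 95.1 to 444 CPM with MYCN on and 38.2 to 93.2 CPM with MYCN off and rose 2.80-fold. Nop16, a pre-ribosomal protein, ranged from 68.4 to 192 CPM with MYCN on and 25.6 to 46.5 CPM with MYCN off and rose 2.78-fold. These 3 genes had no overlap of the groups. Mrto4, which holds the place of the ribosomal stalk, ranged from 52.7 to 123 CPM with MYCN on and 19.3 to 38.04 CPM with MYCN off and rose 2.78-fold, and 59% of its transcript matches other annotated genes. Rrs1 (mm9 chromosome 1, 9535489 to 9537536, plus strand), which helps to dock the particle of the smallest ribosomal RNA, was counted at 64.3, 45.99, 80.3, 71.7 and 106 CPM with MYCN on and 21.9, 16.03, 31.4, 25.2 and 26.5 CPM with MYCN off. The on and off groups of Rrs1 did not overlap, and its changes lay between 1.35 and 1.99. The rise was 3.001-fold (log2 change 1.59, SE 0.14, adjusted p = 0.00265). Smaller rises were those of Ebna1bp2 (2.33-fold), Wdr74 (2.22-fold) and Nip7 (2.12-fold), all pre-ribosomal factors of the large subunit. Ebna1bp2 ranged from 129.9 to 264 CPM with MYCN on and 63.3 to 93.7 CPM with MYCN off. Nip7 ranged from 64.4 to 124 CPM with MYCN on and 34.7 to 56.2 CPM with MYCN off. Wdr74 was counted at 46.8, 54.97, 148, 75.8 and 90.6 CPM with MYCN on and 28.6, 25.2, 70.8, 31.4 and 29.9 CPM with MYCN off, and its groups overlapped through the off library of G9488. Of the exon bases of Ebna1bp2, 20.4% overlap D4Ertd617e.

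By step, the median log2 change was 1.79 for the 4 H/ACA genes, 1.79 for the 5 general factors, 1.73 for the 4 box C/D genes, 1.47 for the 12 large subunit genes and 1.38 for the 10 small subunit genes. Without G9577 the medians were 1.71, 1.61, 1.5, 1.28 and 1.06. Gene by gene, the rises without G9577 were 2.70-fold for Ncl, 3.06-fold for Nolc1, 2.36-fold for Tcof1 and 3.06-fold for Mybbp1a among the general factors. They were 2.76-fold for Nop56, 2.85-fold for Nop58, 3.20-fold for Fbl and 2.81-fold for Rrp9 among the box C/D genes, and 3.23-fold for Dkc1, 2.91-fold for Gar1 and 3.31-fold for Nop10 among the H/ACA genes. In the small subunit they were 2.60-fold for Heatr1, 2.32-fold for Wdr43, 1.89-fold for Imp4, 1.86-fold for Noc4l, 3.07-fold for Rcl1, 2.06-fold for Bysl, 2.32-fold for Tsr1 and 2.10-fold for Nob1. In the large subunit they were 2.10-fold for Pes1, 2.12-fold for Bop1, 3.12-fold for Wdr12, 2.43-fold for Nop2, 3.61-fold for Gnl3, 2.54-fold for Nop16, 3.38-fold for Ppan, 1.97-fold for Nip7, 2.07-fold for Wdr74, 2.82-fold for Rrs1, 2.05-fold for Ebna1bp2 and 2.43-fold for Mrto4. All of these passed the test in the 4 remaining lines. The 3 particle and general groups had higher medians than the 2 subunit groups in all 5 lines. This order was not tested, since genes of a step are not replicates.

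The lines differed in the size of the rise. The median change over the 35 members was 1.57, 1.33, 1.08, 1.38 and 2.34 on the log2 scale in the 5 lines. G9577 had the largest change in 32 members and G9488 the smallest in 25. The summed level of the members was 15398 CPM in the on library of G9577, against 5628 to 7345 CPM in the other on libraries. With MYCN off it was 1978, 2056, 3446, 2667 and 2819.7 CPM. As a share of all counts, before scaling, the members held 0.204, 0.220, 0.355, 0.273 and 0.228% with MYCN off. The order of G9529 and G9577 thus depends on the scale. G9577 was the highest on library for 33 members, while the highest off library was that of G9488 for 21. The log2 change of reads in the Mycn gene was 1.61, 4.16, 2.23, 2.85 and 3.50 in the 5 lines, largest in G9351, where the median of the members was 1.33. With MYCN off, G9488 and G4314 held the most Mycn. The summed level of the members was highest in G9488 and lowest in G4314, which was their lowest off library for 18. A relation between Mycn reads and the level of the members was not tested. With 1 pair of libraries per line, a difference between lines could not be tested.

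**Figure D4:**
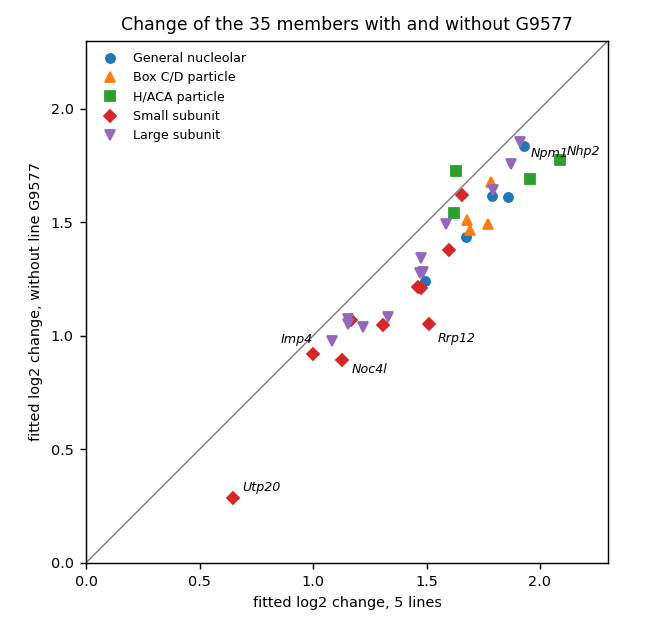
Fitted log2 change, MYCN on minus MYCN off, over the 5 lines on the horizontal axis and over the 4 lines without G9577 on the vertical axis, 1 point per member with shapes for steps. Points lie on or below the diagonal except that of Nop10, and Utp20 lies lowest on both axes.

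Other genes of the pathway, from lists written down beside the members, had smaller median changes. Of 39 other small subunit genes 34 rose, with a median log2 change of 0.94. Among all genes tested the share that rose was 15.3%. They included the processome subunit Wdr3 (2.62-fold), Aatf (2.21-fold) and Esf1 (2.02-fold). Of 45 other large subunit genes 38 rose (median 0.93), among them Rsl1d1 (2.82-fold), the RNA methyltransferase Ftsj3 (2.78-fold) and the GTPase Gtpbp4 (2.47-fold). Without G4314 the small subunit count was 22. Of 10 genes that assemble small nucleolar particles 7 rose (median 0.83), with the paired helicases Ruvbl2 (2.72-fold) and Ruvbl1 (2.41-fold) and the dyskerin chaperone Shq1 (2.21-fold), but 4 without G4314. In the exosome, which trims precursor ends, 11 of 14 genes rose (median 0.70), including Exosc1 (2.82-fold), Exosc6 (2.43-fold) and Exosc7 (2.04-fold). Leaving out G4314 gave 5 exosome genes and leaving out G9351 gave 4. At an unadjusted p under 0.05 the exosome counts were 12 with all lines, 12 without G4314 and 11 without G9351. Calls over all genes, in either direction, also fell, from 3973 to 1768 without G4314 and 1729 without G9351. For RNA polymerase I and its factors 9 of 13 genes tested rose (median 0.88), led by Polr1b (4.21-fold), Polr1e (3.12-fold) and Taf1d (2.42-fold). In these 5 lists edgeR's quasi-likelihood test called 0 genes lower, also at an unadjusted p under 0.05, as did DESeq2 and limma-voom. Without G9577 the counts were 35 other small subunit, 39 other large subunit, 7 particle assembly, 11 exosome and 10 polymerase I genes, with medians of 0.84, 0.82, 0.72, 0.62 and 0.76. Among all genes the share that rose without that line was 17.4%. The members had been chosen with earlier results known, so their higher median is a description.

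Of 79 ribosomal protein genes tested 72 rose, beside 15.3% of all genes tested, and they ordered the lines differently. Matches of their transcripts to other genes were not checked, so their levels may be uncertain. Their median log2 change was 1.19, 1.25, 1.11, 1.21 and 0.79 in the 5 lines, lowest in G9577, where the assembly factors had their highest median (2.34). Without G9577, 70 ribosomal protein genes rose, beside 17.4% of all genes, and without the line as a block 25 did. Over all genes tested the medians were -0.04, 0.00, -0.01, -0.02 and -0.23. Of 76 mitochondrial ribosomal protein genes 51 rose, with medians of 0.65, 0.55, 0.44, 0.56 and 0.84. Their count was 23 without G4314, 24 without G9351, 49 without G9577 and 1 without the block. Genes called in either direction numbered 3973, but 1768 without G4314, 1729 without G9351 and 274 without the block. Mitotic genes moved with the members in some lines: the median of 12 such genes was 2.66, 1.72, 0.44, -0.03 and 3.19. In G9529 the mitotic median was near 0 while that of the assembly factors was 1.38, and 6 of the 12 mitotic genes rose over all lines. That count was 12 without G9529, 4 without G9488, 3 without G9577 and 0 without G4314 or without G9351, where 4 and 7 passed an unadjusted p under 0.05. By DESeq2 it was 12 and by limma-voom 9. The summed level of the 12 ran from 2287 to 5026 CPM with MYCN on and from 602 to 2559.8 CPM with MYCN off. The part of cell division in the rise of the members was not tested. Whether the difference between assembly factors and ribosomal proteins in G9577 exceeds its error was also not tested.

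**Figure D5:**
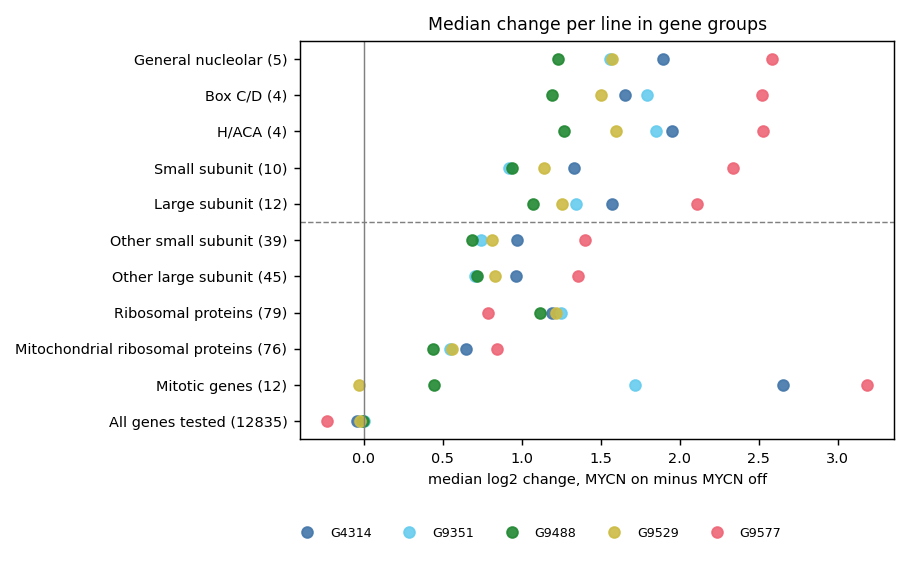
Median log2 change, MYCN on minus MYCN off, on the horizontal axis for the 5 steps of the members (above the dashed line) and for comparison lists (below it), with the number of genes in brackets and 1 coloured point per line. Medians of the members lie right of 0.9 in every line, those of ribosomal proteins are lowest in G9577, and those of mitotic genes spread from below 0 to above 3.

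Promoters of the members were searched for the E-box CACGTG, the site known to be bound by MYC and MAX. It reads the same on both strands. RefSeq windows of 300 bases (250 before to 50 after the start site, build GRCm38.p6) were found for 29 of the 35 members, in 31 windows, and 7 members held an E-box. That is 22.6% of their windows, beside 9.85% of the windows of all genes tested and 7.15% of all windows of that length. The share was 21.5% for the other assembly genes and 10.7% for ribosomal protein genes. The variant CACGCG (or CGCGTG, the same on the other strand) was in 29% of the members' windows and 17.6% of those of all genes tested. The 7 sites are shown with their flanks, 5′ to 3′ on the strand of the gene, with the E-box in capitals, to show how they differ outside its 6 bases.
Imp4: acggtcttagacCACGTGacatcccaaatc
Nop2: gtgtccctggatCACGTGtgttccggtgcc
Pes1: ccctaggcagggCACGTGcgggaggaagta
Tsr1: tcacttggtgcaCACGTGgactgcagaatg
Wdr43: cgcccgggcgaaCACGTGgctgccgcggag
Utp20: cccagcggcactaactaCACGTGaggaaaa
Mybbp1a: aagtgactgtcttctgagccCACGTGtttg

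In Imp4 (chr1:34439696-34439725, plus strand) and Nop2 (chr6:125131811-125131840, plus strand) the E-box lay before the start site, its first base at -121 and -60. In the other 5 it lay after the start site, its first base at 3 in Pes1 (chr11:3963965-3963994, plus strand), 25 in Tsr1 (chr11:74898092-74898121, plus strand), 18 in Wdr43 (chr17:71616220-71616249, plus strand), 38 in Utp20 (chr10:88826765-88826794, minus strand) and 41 in Mybbp1a (chr11:72441347-72441376, plus strand). The fitted rises of these 7 were 3.46-fold for Mybbp1a, 2.80-fold for Nop2, 2.78-fold for Wdr43, 2.75-fold for Tsr1, 2.22-fold for Pes1 and 1.998-fold for Imp4. Utp20, at 1.57-fold, was not called. A match of letters is no measurement of binding. Members with a window but no match were all called higher. Whether the change differs between members with and without a match was not tested.

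Several members host small nucleolar RNAs within their gene spans. The files list 11 of them inside 6 members, and their rows held 554 reads with MYCN on and 191 with MYCN off over the 5 lines. The pair within Gnl3 had 229 and 65 reads and the pair within Nop56 163 and 39, while the 1 within Tsr1 had 38 and 43. Libraries were made from polyadenylated RNA, so unspliced host transcript and mature small RNA cannot be told apart in these rows. They are given as counts, with no test.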

How the data were processed

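RNA was sequenced from 5 mouse SCLC lines with MYCN on and off, 10 libraries in all. Polyadenylated RNA was made into libraries with the NEBNext Ultra kit, per the labels' protocols. Per the submitters' processing notes, bcl2fastq 1.8.4 and STAR 2.5.2a were used, with build mm9. The authors counted reads in genes with featureCounts 1.6.0, per the file headers, ignoring strand and leaving out reads with several matches or genes, and the deposited count of each gene is not normalized. From these counts, genes passing edgeR's filterByExpr (minimum count 10; 12835 genes) were scaled with TMM factors and tested with edgeR 4.0.16 in R 4.3.3 (quasi-likelihood F test, line as block, two-sided, threshold 0.05 after Benjamini-Hochberg adjustment over all genes). TMM factors ran from 0.86 to 1.07 and were lowest in G9577 (0.915 on and 0.86 off). Genes that passed the filter held 93.9 to 99.9% of the counts. Standard errors (SE) are the log2 change over the square root of F. For a single line, log2 CPM (prior count 2) of the off library was subtracted from that of the on library. Groups and pairs were taken from the labels: same-line libraries deviated together (r from 0.721 to 0.873 across genes, other lines at most 0.273). No 2 libraries were identical. The labels name 1 culture for each line and condition. The p-values therefore set the change against its spread over the 5 lines, which also holds differences between cultures and libraries. Alternatives were no block, DESeq2 1.42.0, limma-voom (limma 3.58.1), RLE scaling, library size alone, 2 other filters, a null of 1.5-fold and each line left out. Near-copies were alignments of at least 100 bases at 97% identity between each member's longest protein-coding transcript and transcripts of other genes in GENCODE M21. Genes that overlap a member in the genome were not removed. The longest transcript can hold bases outside the counted exons. The members and lists were chosen with earlier results of these data known. All members were named, with the 3 smallest p of each other list and Mycn and Myc; Nhp2l1 was added after its values were seen. Gene lists were matched by symbol, and 1 gene, Noc2l, is not analysed here.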

Additional observations from a re-analysis of the deposited data

Results flagged for a closer look

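Dixon's test asks whether the highest or lowest of 5 values lies far from the others. It was run on 105 sets of 5 values (3 per member: CPM with MYCN on, CPM with MYCN off and log2 change) and marked 28, of which 25 were high values of G9577. For normally distributed values chance marks about 1 set in 20. The CPM sets were not put on a log scale, so that rate need not hold for them. The 3 sets of a gene also share libraries. With MYCN on, the G9577 library was set apart as the highest in 19 members. General nucleolar factors among them were Ncl (3902 CPM), Npm1 (1859 CPM), Nolc1 (724 CPM), Tcof1 (489 CPM) and Mybbp1a (1609.8 CPM). The H/ACA genes were Dkc1 (361 CPM), Gar1 (185 CPM) and Nhp2 (493 CPM). Small subunit genes were Heatr1 (307 CPM), Wdr43 (394 CPM), Noc4l (94.7 CPM), Rcl1 (123 CPM), Tsr1 (213 CPM) and Rrp12 (157 CPM). Large subunit genes were Pes1 (293 CPM), Bop1 (333 CPM), Nop2 (444 CPM), Nop16 (192 CPM) and Ebna1bp2 (264 CPM).

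Changes of G9577 that stood apart were those of Rrp9 (2.95, next 1.63), Tsr1 (2.51, next 1.38), Rrp12 (3.70, next 1.15), Pes1 (1.51, next 1.12) and Nop16 (2.04, next 1.41) on the log2 scale. The change of Gnl3 in G9488 stood apart as low, at 1.08 against a next value of 1.97. With MYCN off, the highest library stood apart for Pes1 (103 CPM in G9577), Wdr74 (70.8 CPM in G9488) and Ebna1bp2 (93.7 CPM in G9529).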

How the results depend on the processing

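The count of 34 members higher was the same with DESeq2, limma-voom, RLE scaling, library size alone, both other filters and without G9577. Leaving out each line in turn gave 32 to 34, and the null of 1.5-fold 30, where Noc4l, Bysl, Rrp12 and Bop1 missed the threshold. Without the replicate block the calls were 20 members, 274 genes in all, 7 other small subunit, 6 other large subunit, 1 particle assembly, 0 exosome and 4 polymerase I genes, and 25 ribosomal protein, 1 mitochondrial ribosomal protein and 0 mitotic genes. At an unadjusted p under 0.05 that fit gave 34 members, 10 exosome and 9 mitotic genes, and with the block DESeq2 called 12 and limma-voom 11 exosome genes. No member's fold moved by over 1.5 times under any alternative. No member reversed under any alternative, and none was called lower. Genes changed numbered 3973, and between 1729 and 4493 with each line left out. The null of 1.5-fold left 869 genes, 12 other small subunit, 16 other large subunit, 2 particle assembly and 2 exosome genes, and 41 ribosomal protein, 8 mitochondrial ribosomal protein and 0 mitotic genes (11 mitotic genes at an unadjusted p under 0.05). Over the left-out lines, the counts ran from 4 to 7 for particle assembly, 22 to 35 for other small subunit and 4 to 11 for the exosome. The median change of all genes was -0.08 in the main analysis and -0.24 with no filter on low counts. The causes of these differences were not tested. Levels of members that share bases with other genes are uncertain, since reads that map to several places were not counted. Any effect of this on their levels was not tested.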
